A study of Saccharomyces cerevisiae with 18 samples.

Results

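The U3 table holds 11614 rows, and 1656 of them (14.3%) are transcripts that carry a bare number as identifier and no biotype. They were taken by 2 properties of the row: the identifier consists of digits only and the biotype is empty. The numbers run from 571562 to 573219, a range of 1658 numbers of which 2 have no row. No gene name, description or coordinate stands beside them in the table, and none of the 1656 numbers matched a RefSeq gene ID, locus tag or symbol of the R64 assembly. They are therefore described by their number alone, and no sequence could be assigned to them.

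The yeast genome is transcribed far beyond its protein-coding genes. Many of the additional transcripts start at the same nucleosome-free regions as mRNAs, in the opposite direction, or run antisense to genes. They are grouped by what removes them or lets them persist: cryptic unstable transcripts (CUTs) are degraded by the nuclear exosome soon after synthesis, stable unannotated transcripts (SUTs) persist in wild type cells, and Xrn1-sensitive transcripts (XUTs) are degraded in the cytoplasm by the 5′ exonuclease Xrn1. The U3 table has CUT and SUT rows and 0 rows that open with XUT. The 2 tables of the snR4 experiment list 1242 rows in glucose and 1254 on ice as XUTs, under identifiers of another form, and neither has a row with a number alone. The files do not pair the numbers with any of these names, so no numbered transcript could be followed in the snR4 experiment.

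The libraries behind the table were 3 of U3_Mutant and 3 of U3_WT_Control, from BY4741 cells grown in SD glucose medium at 30°C. In both groups the SNR17B locus was deleted and SNR17A stood under a repressible PGAL promoter, so that the chromosomal U3 snoRNA, which base-pairs with pre-rRNA in small subunit assembly, was shut off in glucose. U3_Mutant expressed a truncated U3 from the centromeric plasmid pRS413, and U3_WT_Control expressed wild type snR17A from the same plasmid. For RNA sequencing, however, the study's methods name BY4741 as a control, and they describe the wild type plasmid for complementation experiments. The methods therefore do not settle the genotype of U3_WT_Control. The study's methods describe the mutant cultures as clones of 1 strain, and the strain did not survive in glucose. These clones were grown overnight in galactose, then diluted into glucose medium and grown there for a long period to deplete the chromosomal U3. The labels give poly(A) selection for all these libraries, whereas the study's text on U3 depletion describes depletion of rRNA. The labels are followed here. The choice bears on transcripts that lack a poly(A) tail. Of the 16 rRNA rows, 10 had a level, with a median of 248835 estimated counts, and 0 of 299 tRNA rows had one.

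The values are the authors' means and variances over the 6 libraries of both groups together, with no value per library. The level used here is the geometric mean of the estimated counts over the 6 libraries. The variance over the libraries contains the difference between mutant and control as well as the spread within each group, and these cannot be told apart in it. The authors' own test of mutant against control was not used. The values below therefore give no direction of change, and no test between the groups was made.

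Numbered transcripts were scarce. Of the 1656, 1308 (79.0%) had a level and 348 (21.0%) had none, against 9.12% of 6692 protein-coding rows without one. A row without a level has no deposited mean or variance and was taken not to have passed the authors' filter on low counts. The share without a level was 34.8% among 925 CUT rows, 24.6% among 847 SUT rows and 21.4% among 402 rows named Unit, and 45.9% among both the 523 antisense rows, which have -as in their name, and the 135 rows named as intergenic. The median level of the numbered transcripts was 18.3 estimated counts, against 581 for the 6082 protein-coding rows with a level, a ratio of 31.7. Only 402 protein-coding rows (6.61%) lay under the median of the numbered transcripts. The middle 50% of numbered transcripts ran from 7.92 to 44.9 estimated counts, the lowest had 1.13 and the highest 4371. The counts are not divided by transcript length, which the table does not give, so the comparison is one of reads and not of molecules.

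**Figure D1:**
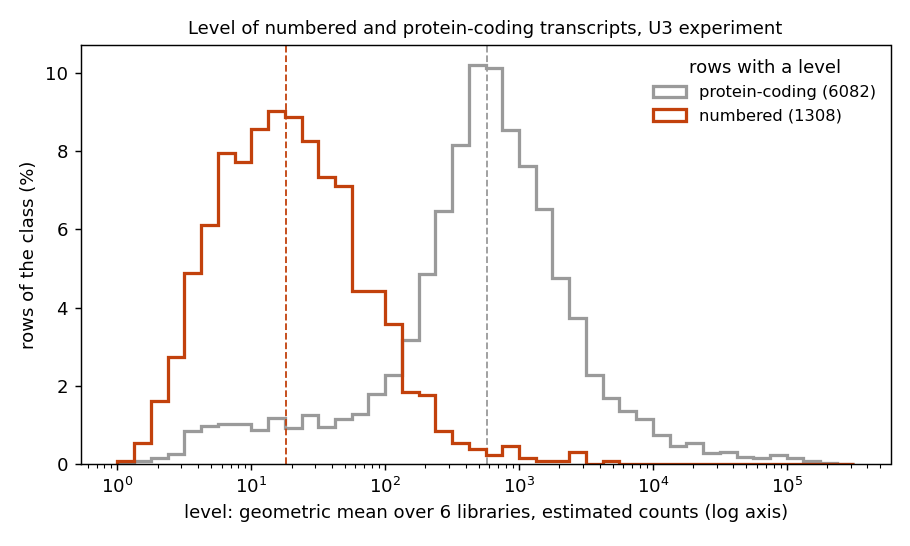
Distribution of the level (geometric mean of the estimated counts over the 6 U3 libraries, log axis) for 1308 numbered transcripts and 6082 protein-coding rows, each as a percentage of its class, with dashed lines at the medians of 18.3 and 581. The 2 distributions overlap mainly below 1000 estimated counts, where the numbered transcripts end with few exceptions.

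The other classes without a biotype were also scarce. The median level was 11.8 estimated counts for 603 CUT rows, 24.4 for 639 SUT rows and 31.4 for 316 Unit rows. It was 15.7 for 283 antisense rows and 27.9 for 73 intergenic rows. The median of the numbered transcripts, 18.3, thus lay above those of the CUT and antisense rows and below the other 3. Levels of at least 100 estimated counts were seen in 135 numbered transcripts (10.3%), in 1.49% of the CUT rows, 12.5% of the SUT rows, 25.3% of the Unit rows, 10.2% of the antisense rows and 23.3% of the intergenic rows. At the low end 414 numbered transcripts with a level had under 10 estimated counts. These orders are descriptions, without a test. They cover only rows with a level, and the share of rows without one differed among the classes.

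A few numbered transcripts rose above the median level of protein-coding rows. Of the 1308, 18 (1.38%) exceeded the protein-coding median. Over 1000 estimated counts were 9 numbered transcripts (0.688%) and 1967 protein-coding rows (32.3%). That share was 0.166% among CUT rows, 0.626% among SUT rows, 2.22% among Unit rows, 1.41% among antisense rows and 2.74% among intergenic rows. The 10 most abundant together held 28.9% of the summed level of all numbered transcripts, and that sum was 0.564 for every 100 of the protein-coding sum. The most abundant was 571727 with 4371 estimated counts. The second most abundant had 3145 estimated counts, and its number is given with the processing. It was followed by 572214 with 2895, 571907 with 2730 and 571829 with 2697 estimated counts. Next came 572183 with 1854, 571776 with 1721, 571719 with 1170, 572999 with 1027 and 572692 with 973 estimated counts. At the middle of the class stood 573158 and 572187, each with 18.3 estimated counts.

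The spread over the 6 libraries was set beside that of protein-coding rows of like level. It is given as the standard deviation on the log2 scale, so that 1 unit corresponds to a factor of 2. Each numbered transcript was compared with the 50 protein-coding rows nearest to it in level, the farthest of which differed from it by 11.3% in the median case and 2.52-fold at the most. The median standard deviation of the numbered transcripts was 0.81, with a lowest of 0.12 and a highest of 4.30, and that of all protein-coding rows was 0.44. Most of this gap went with level. Against matched rows, 761 numbered transcripts (58.2%) had a variance above the matched median, where 50 in 100 would lie above it if the classes were alike, and the median ratio of variances was 1.27. At least 90% of the matched rows had a lower variance for 276 transcripts (21.1%), and fewer than 10% had for 116 (8.87%).

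The excess was greatest among abundant numbered transcripts, which were few, and it did not rise steadily with level. Over all numbered transcripts, Spearman's rho between level and the percentile of the spread among matched rows was 0.01. Of the 126 with at least 100 and under 1000 estimated counts, 98 (77.8%) lay above the matched median, with a median variance ratio of 2.53. All 9 above 1000 estimated counts did, with a median ratio of 3.19. Between 10 and 100 estimated counts it was 411 of 759 (54.2%), and under 10 it was 243 of 414 (58.7%). Median standard deviations in these 4 ranges, from the lowest level to the highest, were 1.21, 0.75, 0.69 and 0.70 on the log2 scale. Those of the protein-coding rows in the same ranges were 0.94, 0.69, 0.39 and 0.44. The 2 classes thus differed little between 10 and 100 estimated counts, and the numbered transcripts kept a wide spread at levels where the protein-coding rows had a narrow one.

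Single transcripts stood out from their matched rows. For the second most abundant numbered transcript, with 3145 estimated counts, the standard deviation over the 6 libraries was 2.49 on the log2 scale. Its 50 matched protein-coding rows had a median of 0.43 and ran from 0.11 to 1.97, so all of them lay below it. The variance of this transcript was 34.0 times the matched median. Transcript 571711, with 789 estimated counts, had a standard deviation of 1.85 where the matched rows reached 1.15, and 572183, with 1854 estimated counts, had 1.51 where they also reached 1.15. The variances of these 2 transcripts were 27.0 and 12.2 times the matched median. The 2 next by level among those above all matched rows were 572110 (421 estimated counts, standard deviation 1.29) and 572449 (214 estimated counts, standard deviation 1.37), each with a variance 10.1 times the matched median. In all, 35 numbered transcripts (2.68%) lay above every matched row and 23 (1.76%) below every one. With 50 matched rows, a small share would lie beyond all of them at either end even if the classes were alike. These 2 counts therefore do not by themselves set the class apart.

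High level and wide spread did not go together throughout. The most abundant transcript, 571727, had a standard deviation of 1.05 on the log2 scale, above 96% of its matched rows. Of the other highly abundant ones, 572214, 571907 and 571829 had 0.52, 0.54 and 0.50, near the matched medians of 0.44, 0.45 and 0.45. Transcript 572692 had 0.41 against a matched median of 0.36. Levels of these 4 differed among the libraries about as much as those of mRNAs of like level.

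Other numbered transcripts were very even. Transcript 573025, with 47.0 estimated counts, had a standard deviation of 0.12 on the log2 scale, the lowest of the class, where its matched rows ran from 0.20 to 1.48. Transcripts 572364 (60.7 estimated counts), 573186 (55.1), 573200 (31.6) and 571575 (22.9) had standard deviations of 0.17, 0.19, 0.21 and 0.17, each below all 50 matched rows. In all 5 the technical variance of the quantification exceeded the variance over the libraries. It came to 452% of that variance for 573025, 130% for 572364, 127% for 573186, 180% for 573200 and 358% for 571575. These 5 were chosen for a low variance over the libraries, so a high share follows in part from the choice. Multiplied by the count, their technical variance was from 0.658 (571575) to 1.07 (573025) times the median of their matched rows.

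Some of the widest spreads lay close to values that libraries at 0 give. The authors' values are logarithms of the estimated count plus 0.5, so a library at 0 enters with a fixed low value. For a given level, a row with 1 library at 0 cannot have a spread below the value that 5 equal libraries and 1 at 0 give. Of the 1308 numbered transcripts, 1033 (79.0%) were below that value and so had no library at 0. The other 275 (21.0%) reached it, against 106 of 6082 protein-coding rows (1.74%), a comparison that is not matched on level. Reaching it does not by itself show a library at 0. Under 10 estimated counts, 190 of 414 numbered transcripts (45.9%) and 82 of 269 protein-coding rows (30.5%) reached it. Between 10 and 100 it was 84 of 759 (11.1%) and 21 of 574 (3.66%). From 100 upwards it was 1 of 135 numbered transcripts and 3 of 5239 protein-coding rows. The numbered transcripts had the higher share in each of the 3 ranges, and in both classes the share fell with level. Within 2% of the values for 1, 2 and 3 libraries at 0 with the others equal lay 34, 26 and 22 numbered transcripts, together 82 (6.27%).

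The 3 numbered transcripts of at least 10 estimated counts with the highest variance ratio, chosen after their values were seen, lay close to these lines. Transcript 572481, with 107 estimated counts, had a standard deviation of 3.86 on the log2 scale, and 5 equal libraries with 1 at 0 would give 3.80 at its level. Transcript 572973, with 95.8 estimated counts, had 3.68 against 3.72 for that case, just under it. Transcript 572988, with 22.8 estimated counts, had 4.30, and 2 libraries at 0 with 4 equal would give 4.29. Their variances were 64.5, 47.7 and 38.0 times the matched medians. By contrast, the second most abundant transcript, 571711 and 572183 were far below the value for 1 library at 0, which is 6.18, 5.20 and 5.81 at their levels, and so were present in every library. Of the 35 transcripts above all matched rows, 20 reached the value for 1 library at 0 and 15 did not. Which library was at 0, and in which group, cannot be read from pooled values.

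**Figure D2:**
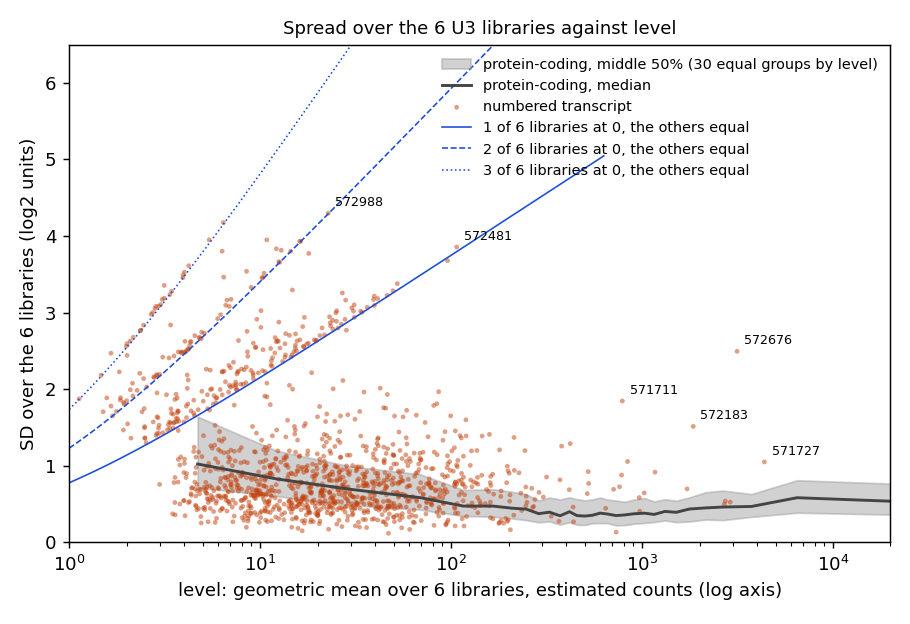
Standard deviation over the 6 U3 libraries (log2 units) against level (geometric mean of estimated counts, log axis) for 1308 numbered transcripts (points), with the median and middle 50% of protein-coding rows (line and band) and, in blue, the values that 1, 2 or 3 of 6 libraries at 0 give when the others are equal. Points gather along the blue lines below about 100 estimated counts, while the second most abundant transcript, 571711 and 572183 stand above the band and far below the lines.

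The technical variance of the quantification also set many numbered transcripts apart from mRNAs of like level. Kallisto divides reads that fit several transcripts among them, and its repeated runs on resampled reads, made by the authors, measure how far that division varies. If counting alone were at work and the libraries had equal counts, the technical variance times the count would be close to 1. The count here is the geometric mean, so unequal libraries can raise the product by themselves. For protein-coding rows the median product was 1.22. For numbered transcripts the median was 2.07, with the middle 50% from 1.38 to 5.18. A product over 2 was found for 673 numbered transcripts (51.5%) and for 407 protein-coding rows (6.69%), and a product over 5 for 335 (25.6%) and 148 (2.43%). These protein-coding values cover all rows with a level and are not matched on level. Under 10 estimated counts the median product was 1.86 for numbered transcripts and 1.62 for protein-coding rows. It was 2.33 and 1.40 between 10 and 100, 2.03 and 1.23 between 100 and 1000, and 1.59 and 1.17 above. Against the 50 protein-coding rows nearest in level, 896 numbered transcripts (68.5%) lay above the matched median, with a median ratio of 1.35. Whether overlap of these transcripts with genes or with each other goes with this was not tested, since the table gives no positions.

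The 3 largest products belonged to transcripts of 105 to 246 estimated counts, well above the median of the class. For 572507, with 118 estimated counts, the product was 210, for 572558, with 105, it was 196, and for 572474, with 246, it was 178, all chosen after their values were seen. Their matched rows had medians of 1.25, 1.26 and 1.23. The technical variance of 572507 was 705% of its variance over the libraries, that of 572558 726% and that of 572474 288%. The estimates of these 3 transcripts were thus far less certain within a library than their standard deviations of 0.72, 0.73 and 0.72 on the log2 scale would give by themselves. Among the 9 transcripts above 1000 estimated counts the product ran from 0.979 to 2.81, the highest for 571719, and 8 of the 9 lay above the matched median. It was 1.11 for 571727, 2.02 for the second most abundant transcript and 1.94 for 572183, and the last 2 of these exceeded all of their matched rows. Both also exceeded all matched rows in spread over the libraries, so an excess in quantification cannot be read from these products. For 571711 the product was 1.56. For all 4 transcripts the technical variance was between 0.0215% and 0.121% of the variance over the libraries. That share is small also because their variance over the libraries was large.

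**Figure D3:**
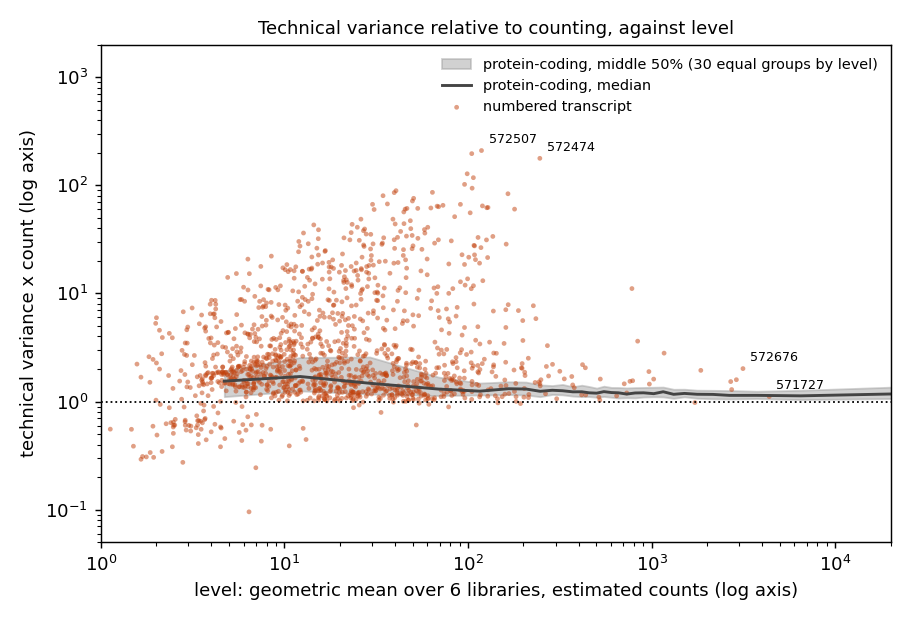
Technical variance of the quantification multiplied by the count (log axis, dotted line at 1 for counting alone in libraries of equal count) against level (geometric mean of estimated counts, log axis) for 1308 numbered transcripts, with the median and middle 50% of protein-coding rows. Many numbered transcripts between 10 and 200 estimated counts lie far above the protein-coding band, up to 210 for 572507, and the 9 above 1000 lie between 0.979 and 2.81.

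Uncertainty of the quantification enters both the technical variance and the variance over the libraries, so the 2 are linked by construction. For many numbered transcripts the technical variance was a large share of the variance over the libraries. In the median numbered transcript it made up 41.2% of the variance over the libraries, against 3.19% in protein-coding rows, which are not matched on level here, and for 346 (26.5%) it was at least as large as that variance. By level the median share was 55.5% under 10 estimated counts, 41.4% between 10 and 100, 8.37% between 100 and 1000, and 0.340% above. In protein-coding rows of the same 4 ranges it was 63.4%, 21.4%, 4.53% and 0.586%, so the numbered transcripts had the higher share only in the 2 middle ranges. When the technical variance was subtracted from both classes before matching, 676 numbered transcripts (51.7%) lay above the matched median in place of 761. In that form the share was 46.1% between 10 and 100 estimated counts (350 of 759) and 55.6% under 10 (230 of 414), while an excess remained between 100 and 1000 (87 of 126, 69.0%) and above 1000 (9 of 9). Among numbered transcripts of at least 10 estimated counts, the median product was 9.83 in those that reached the value for 1 library at 0. It was 2.05 in those below it. This contrast was not particular to the class. At that level it was 13.2 against 1.21 in protein-coding rows, 16.1 against 2.35 in SUT rows and 19.9 against 2.57 in Unit rows. CUT rows had 8.92, from 5 rows, against 1.44. Under 10 estimated counts numbered transcripts had 1.98 against 1.85.

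The other classes without a biotype differed in these 2 measures. CUT rows lay close to protein-coding rows of like level on both, and the other 4 classes lay above them. The median variance ratio to matched protein-coding rows was 0.992 for CUT rows, 1.90 for SUT rows and 2.11 for Unit rows, and the median ratio of technical variance times count was 0.963, 2.10 and 3.02. Antisense rows had 2.13 and 2.19, and intergenic rows had 4.37 and 4.14. The numbered transcripts, at 1.27 and 1.35, stood above CUT rows and below the other 4 classes on both. The share of rows that reached the value for 1 library at 0 was 13.1% for CUT rows, 21.0% for numbered transcripts, 26.6% for SUT rows and 33.2% for Unit rows, without matching on level. These classes were quantified together from the same reads, and the order among them was not tested.

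**Figure D4:**
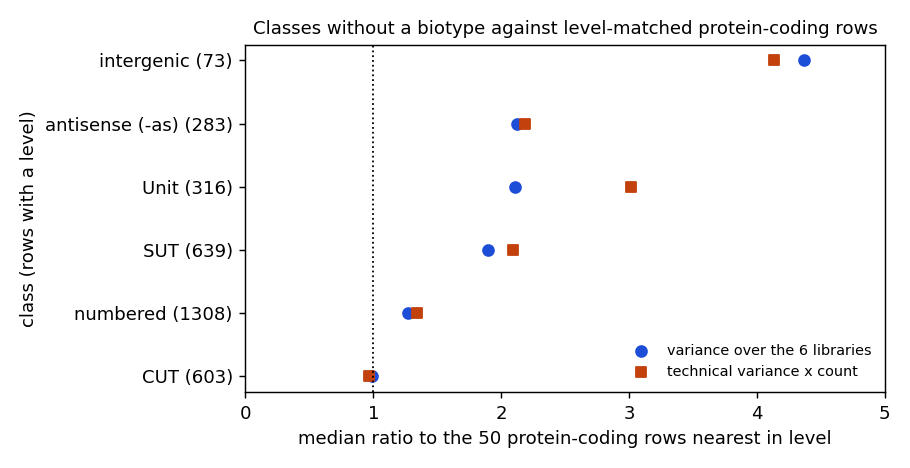
Median ratio to the 50 protein-coding rows nearest in level, for the variance over the 6 U3 libraries (circles) and for technical variance times count (squares), in 6 classes of rows without a biotype, with the number of rows that had a level in brackets and a dotted line at 1. The numbered transcripts, at 1.27 and 1.35, lie above CUT rows and below the other 4 classes on both measures.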

How the data were processed

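Poly(A)-selected RNA was sequenced from 3 U3_Mutant and 3 U3_WT_Control libraries per the labels. The authors trimmed the reads, quantified transcripts with kallisto and modelled them with sleuth. The submitters' notes name build R64, and the methods name an Ensembl release. The source of the numbered rows and the use of strand in counting are not given in the sources used here. The deposited mean values are natural log (ln) values of the authors' estimated counts plus 0.5, averaged over 6 libraries. The deposited variance and technical variance are those of the authors' ln values and were handled as score values, in squared ln units. The offset was checked, and the log base was not varied. With an offset of 0.5, 34 numbered rows lay within 2% of the line for 1 library at 0. With offsets of 0.1, 0.25 and 1 it was 4, 6 and 5 rows. For 2 and 3 libraries at 0 the contrast with an offset of 1 was weaker, at 26 and 22 rows against 16 and 13. The effect, its error, the p-values, q-values and residual variances of the sleuth comparison were not used, nor were the values of the 2 snR4 tables, whose DESeq2 comparisons by the authors hold no numbered row. Depth per library is unknown.

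Levels were computed as the exponential of the mean less 0.5. Each member was matched to the 50 protein-coding rows nearest in mean. No test was made, since the table gives no value per library. The matching was checked on protein-coding rows whose variance was multiplied by known factors. Those rows were drawn over all protein-coding levels, not around the levels of the members. Alternatives were other numbers of matched rows, unmatched rows, a minimum of 10 estimated counts, subtraction of technical variance, and no subtraction of the offset. The named transcripts were the second most abundant, whose number is 572676, with the other members of the 10 most abundant, the 5 highest and 5 lowest in spread among matched rows with at least 10 estimated counts, and those nearest the median. Others were chosen after their values were seen. The lines for libraries at 0 and the technical variance times count were also added after the values were seen. The members and lists were chosen with earlier results of these data known. The software was Python 3.11.15 with matplotlib 3.10.9, scipy 1.17.1, pandas 2.3.3 and numpy 2.4.6.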

Additional observations from a re-analysis of the deposited data

How the results depend on the processing

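The median level of the numbered transcripts was 30.9 estimated counts among the 894 with at least 10, against the 18.3 given for all 1308. That minimum raises the median by construction, here 1.69-fold. Without subtraction of the offset it was 18.8. Among all rows with a level, in place of protein-coding rows, 21.8% lay under that median. The share of numbered transcripts with a variance above the reference median, 58.2%, ran from 57.5% to 59.3% with 20 or 100 matched rows or a minimum of 10 estimated counts. It was 86.9% against all protein-coding rows without matching and 51.7% after subtraction of technical variance. Technical variance was at least the variance over the libraries for 23.3% of transcripts with at least 10 estimated counts. The share above the matched median in technical variance times count was 71.8% with that minimum and 68.3% and 67.9% with 20 and 100 matched rows. Levels under 10 estimated counts rest on few reads. No paired analysis was possible because the table carries no value per library, and for the same reason no replicate could be left out.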

Other observations

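The identifiers carry an order of their own, which was compared with the values as a hypothesis that transcripts with adjacent numbers behave alike. Over 1031 pairs of transcripts whose numbers differ by 1, Spearman's rho was 0.02 for the level and 0.04 for the percentile of the spread among matched protein-coding rows. At a difference of 2 it was 0.02 and 0.00 over 1027 pairs, and at a difference of 50 it was -0.02 and 0.00 over 1000 pairs. These correlations run across transcripts of the same libraries, and they are given as descriptions. When the 1656 numbers were split in their order into 10 blocks of about equal size, between 73.9% and 84.3% of each block had a level, and the median level ran from 13.9 to 23.5 estimated counts. The order of the numbers thus carried next to no information on level or spread.

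Within the class, Spearman's rho between level and variance over the libraries was -0.33, against -0.17 in protein-coding rows, and between level and technical variance times count it was 0.13. The percentile of the spread and that of the technical variance times count, each among matched protein-coding rows, had a rho of 0.35 over the 1308 transcripts. Both percentiles come from the same libraries and matched rows, and uncertainty of the quantification enters both. Part of this association is therefore built in.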
